A study of Rattus norvegicus with 14 samples.

Results

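The genes described here encode the constitutive subunits of the proteasome, and their RNA was measured on 14 arrays of motor cortex from male rats with a spinal cord injury. Members were the genes whose single symbol in the platform's annotation reads Psma, Psmb, Psmc or Psmd followed by a number, without the 3 inducible catalytic subunits Psmb8, Psmb9 and Psmb10. There were 36 such genes among 22093 genes with 1 symbol, 16 of the core particle (Psma and Psmb) and 20 of the regulatory particle (Psmc and Psmd). Where a gene had several probe sets the one with the highest mean over the 14 arrays stood for it, and 35 of the 36 had only 1. Every rat in both groups had a spinal cord injury and received cyclosporine A, an immunosuppressant, each day. The 7 arrays of the MSC group came from rats infused with MSC 24 hours after injury, by the femoral vein, and the 7 arrays of the vehicle group from rats infused with vehicle in the same way. Tissue was collected 3 days later, and no uninjured rats entered the comparison. MSC, not spelled out in the labels, commonly stands for mesenchymal stem (or stromal) cells, and where the cells came from, the strain and the age of the rats are not given here.

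The proteasome is the protease that degrades proteins tagged with ubiquitin. Its core particle is a barrel of stacked rings built from alpha subunits (Psma genes), which gate the entrance, and beta subunits (Psmb genes), of which Psmb5, Psmb6 and Psmb7 carry the proteolytic sites. The regulatory particle caps the barrel: a ring of ATPases (Psmc genes) unfolds the substrate and the non-ATPase subunits (mostly Psmd genes) bind and remove the ubiquitin chain. Cells raise the subunit genes together when proteasome activity falls short, through the transcription factor Nfe2l1, and neurons depend on the particle for the turnover of synaptic proteins.

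Markers of cortical excitatory neurons were bright on every array, with a list mean of 13.57 to 14.23 on the log2 scale, and 44 of 48 marker genes listed for 10 cell or tissue types were measured. Some arrays stood apart. Choroid plexus markers, led by Ttr, had a list mean of 10.05 on MSC replicate 4 and 9.88 on vehicle replicate 2, against 5.55 to 6.54 on the other arrays. Striatal markers had a list mean of 8.24 on MSC replicate 6, against 7.10 to 7.40 elsewhere. Meningeal fibroblast markers had a list mean of 7.98 on MSC replicate 2 and 7.78 on vehicle replicate 2, against 6.74 to 7.19 elsewhere. Of the 44 markers, limma called 0 after adjustment and 3 at an unadjusted p below 0.05, against 0.0% and 3.41% of all probe sets. The 3 markers were Cldn5 of endothelium, with a difference of -0.30, P2ry12 of microglia, with -0.27, and Pvalb of interneurons, with -0.26. By list, 4 of 4 endothelial markers had lower means in MSC, while 5 of 5 for cortical excitatory neurons, 4 of 4 for astrocytes, 5 of 5 for meningeal fibroblasts and 3 of 3 for erythroid cells had higher means. The lists of Pvalb and P2ry12 were mixed. Of the interneuron markers 3 of 4 were higher, Gad1 by 0.24, Gad2 by 0.19 and Sst by 0.0994. Of the microglia markers 3 of 5 were lower, and those other than P2ry12 differed by -0.0249 to 0.0295. The spike-in control dap lay between 7.45 and 8.12 on replicates 6 and 7 of both groups and between 8.35 and 9.92 on the other arrays, and no label names a batch. One label of MSC replicate 7 speaks of vehicle while its title, source and treatment give MSC, under which it was kept. The median difference described below was -0.0257 without it and -0.0264 with it counted as vehicle. Whether arrays stand for separate animals is not stated, so the p-values reflect only the spread among these samples, part of which may be technical. The median difference is given below without the arrays high in choroid plexus and striatal markers. It was -0.0155 without MSC replicate 2 and -0.0389 without vehicle replicate 2, the arrays high in meningeal markers. The part of the other marker lists in the differences between groups was not tested.

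The first question was whether any subunit gene differed between MSC and vehicle. No subunit gene passed the threshold. Of the 36 genes, 0 had an adjusted p below 0.05 in limma's moderated test with Benjamini-Hochberg adjustment over all 68842 probe sets, where 0 probe sets (0.0%) passed. At an unadjusted p below 0.05 in limma the count was again 0 of 36, against 2345 of 68842 probe sets (3.41%), and the smallest unadjusted p was 0.0515, for Psmc3. The means of 24 subunit genes were lower in MSC and those of 12 were higher, where 58.0% of all probe sets and 52.4% of genes, at 1 row each, had lower means. The median difference, MSC minus vehicle on the log2 scale, was -0.0191 over the subunit genes, -0.0149 over all probe sets and -0.0038 over genes. Among the 14213 genes with a mean at or above the lowest array median of 5.77, 6831 were lower and the median difference was 0.00313. Of the subunit genes, 35 of 36 were at or above that array median. The MSC and vehicle values overlapped for all 36 genes, as they did for all but 22 of the 68842 probe sets (0.032%).

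Intervals bounded the size of each difference, taken 1 gene at a time. Like the p-values they rest on the spread among these samples, and they would be too narrow if arrays shared an animal. The differences ran from -0.14 to 0.06, and their 95% intervals from limma had a median half-width of 0.157. For 36 of 36 subunit genes the whole interval lay within a 1.5-fold difference either way, as for 97.7% of genes. For 26 of 36 it lay within 1.2-fold, as for 71.6% of genes. The deposited values come from RMA, which subtracts background and normalises arrays, so a shift common to most transcripts would be removed, at least in part. The tested probe sets kept some offset between arrays. Centring arrays on their medians moved the median difference of the subunit genes from -0.0191 to -0.00315. The count of subunit genes lower in MSC went from 24 to 18. Differences of dim genes may be understated, which was not tested. In tissue RNA, fewer cells of a type and less RNA per cell cannot be told apart.

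**Figure D1:**
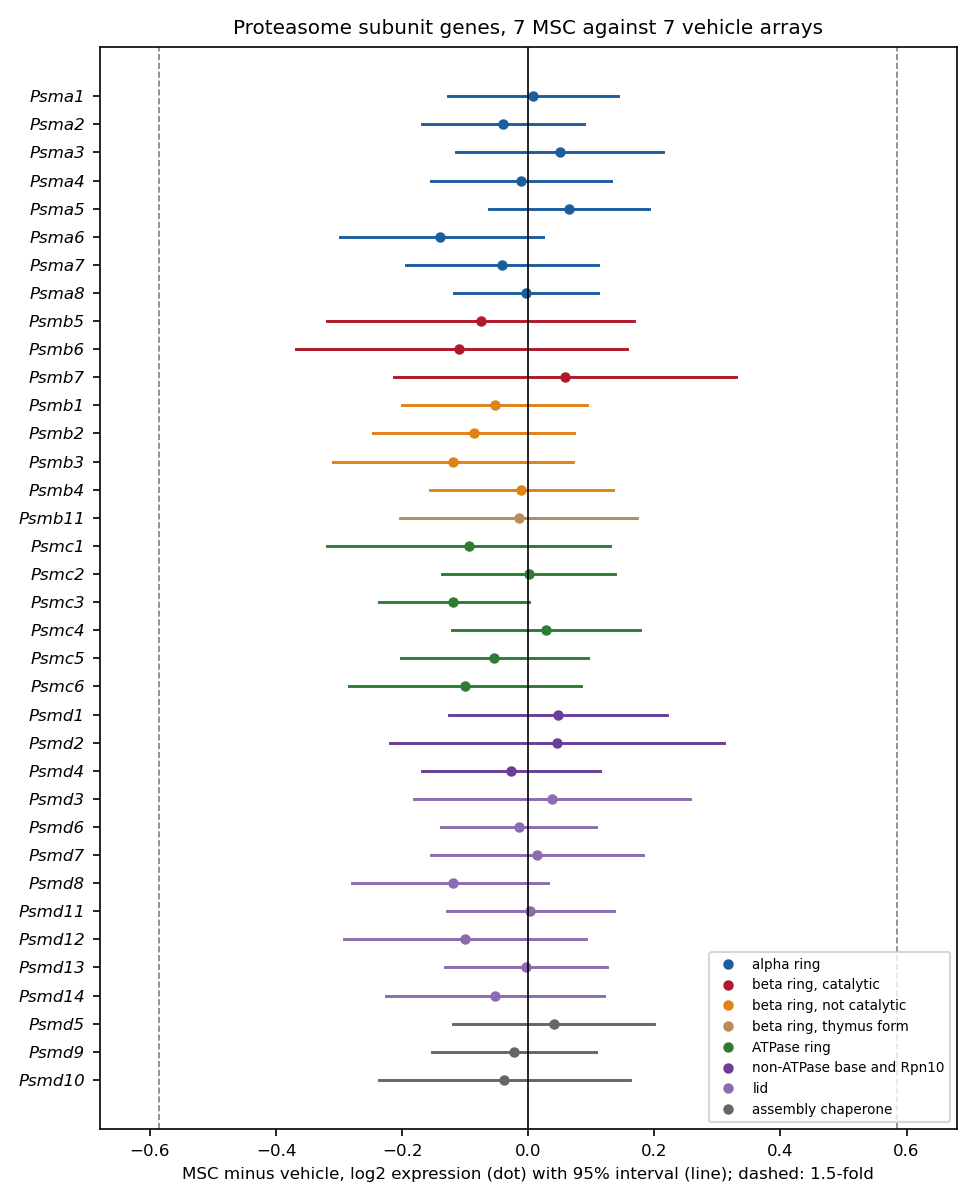
Difference between the mean log2 expression of 7 MSC and 7 vehicle arrays (dot) for each of the 36 subunit genes, with its 95% interval from limma (line), coloured by place in the particle. Every interval lies between the dashed lines at 1.5-fold, and every interval includes 0.

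The catalytic subunits are the genes on which proteolysis rests. Their promoters, and the elements in them, are shown here because the subunit genes are known to be transcribed together from such elements. The sequences are RefSeq's for the rat assembly GRCr8, run 5′ to 3′ on the gene's strand, start 250 bases before the gene start and end 50 bases after it. Capitals mark 3 searched motifs on either strand: TGACNNNGC, the core of the antioxidant response element that Nfe2l1 and Nfe2l2 bind, CCAAT, the box that NF-Y binds, and GGGCGG, the GC box that Sp1 binds.
Psmb5, chr15:32047330-32047629, minus strand: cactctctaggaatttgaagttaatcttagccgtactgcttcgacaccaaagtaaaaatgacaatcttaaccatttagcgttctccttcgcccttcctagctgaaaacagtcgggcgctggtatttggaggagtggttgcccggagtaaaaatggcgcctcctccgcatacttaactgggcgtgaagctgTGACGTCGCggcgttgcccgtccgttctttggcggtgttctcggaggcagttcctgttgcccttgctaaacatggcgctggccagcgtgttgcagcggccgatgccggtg
Psmb6, chr10:55737638-55737937, plus strand: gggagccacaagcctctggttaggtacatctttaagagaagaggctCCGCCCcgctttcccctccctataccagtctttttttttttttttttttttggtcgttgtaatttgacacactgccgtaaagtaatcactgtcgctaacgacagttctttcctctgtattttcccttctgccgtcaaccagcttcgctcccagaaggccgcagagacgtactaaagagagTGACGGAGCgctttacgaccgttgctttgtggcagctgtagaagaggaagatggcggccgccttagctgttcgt
Psmb7, chr3:42827421-42827720, minus strand: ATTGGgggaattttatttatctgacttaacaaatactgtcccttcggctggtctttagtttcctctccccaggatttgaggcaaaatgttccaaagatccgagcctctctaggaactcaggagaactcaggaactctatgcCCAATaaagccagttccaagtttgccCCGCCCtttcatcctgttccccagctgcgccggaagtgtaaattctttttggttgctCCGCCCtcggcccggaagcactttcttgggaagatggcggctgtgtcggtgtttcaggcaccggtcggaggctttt
The Psmb5 window holds 1 response element core, the Psmb6 window holds 1 such core and 1 GC box, and the Psmb7 window holds 2 CCAAT boxes and 2 GC boxes and no response element core.

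Psmb5, the chymotrypsin-like subunit and the main target of proteasome inhibitors, ran from 11.31 through a median of 11.69 to 12.08 on the MSC arrays and from 11.51 through 11.79 to 12.01 on the vehicle arrays. The MSC values spanned the whole vehicle range. The means were 11.72 ± 0.266 (SD, n = 7) and 11.79 ± 0.189 (SD, n = 7), a difference of -0.0755 ± 0.115 (SE, limma). Without MSC replicate 3 the difference was -0.00837. Psmb6, the caspase-like subunit, ran from 10.78 through 11.55 to 11.62 in MSC and from 11.27 through 11.54 to 11.80 in vehicle. A single array, MSC replicate 3, made the lowest value, and the next MSC value was 11.42. The difference of -0.11 ± 0.123 (SE, limma) became 0.00387 without that array. Psmb7, the trypsin-like subunit, ran from 14.23 through 14.44 to 14.88 in MSC and from 14.03 through 14.39 to 14.82 in vehicle. Its difference, 0.0583 ± 0.127 (SE, limma), was the only one above 0 among the catalytic subunits, and it became -0.0115 without vehicle replicate 1 and -0.00528 without MSC replicate 2. The 95% intervals were -0.319 to 0.168 for Psmb5, -0.368 to 0.157 for Psmb6 and -0.213 to 0.329 for Psmb7, so that none of the 3 lay within 1.2-fold.

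The beta subunits without proteolytic activity all had lower means in MSC, 4 of 4, with a median difference of -0.0697. Psmb3, the third subunit of the beta ring, ran from 10.70 through 11.07 to 11.23 in MSC and from 10.83 through 11.16 to 11.37 in vehicle. The difference was -0.12 ± 0.0893 (SE, limma), with 5 of 7 MSC arrays lower than the vehicle mean. Psmb2, the fourth subunit of the ring, ran from 12.01 through 12.18 to 12.39 in MSC and from 12.02 through 12.29 to 12.42 in vehicle, 2 ranges that nearly coincide. Its difference was -0.0861 ± 0.075 (SE, limma). Psmb1 and Psmb4, which complete the ring, differed by -0.0534 and -0.0111. Psmb11, the thymus form of the chymotrypsin-like subunit, differed by -0.0152. Its means of 7.56 in MSC and 7.58 in vehicle were near those of Psmb1, 7.54 and 7.59. Whether the signal of its probe set is specific was not tested, and lying above the lowest array median does not show it.

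The alpha ring was divided, with 5 of 8 means lower in MSC and a median difference of -0.00765. Psma6, the first subunit of the ring, had the most negative difference of the 36 genes. It ran from 9.96 through 10.26 to 10.49 in MSC and from 10.21 through 10.39 to 10.51 in vehicle, so that the MSC range reached lower and ended at about the same height. The difference was -0.14 ± 0.0759 (SE), 1.10-fold, with 6 of 7 MSC arrays lower than the vehicle mean and an unadjusted p of 0.0901 in limma. Without MSC replicate 3 it was -0.0872. Psma5, the fifth subunit of the ring, went the other way and had the highest difference of all 36 genes. It ran from 9.97 through 10.13 to 10.29 in MSC and from 9.95 through 10.08 to 10.17 in vehicle, a difference of 0.0644 ± 0.0597 (SE, limma). The remaining ring members lay between -0.0415 for Psma7 and 0.0498 for Psma3. Psma8, the testis form of Psma7, was dim, with a mean of 4.39 in both groups, below the lowest array median of 5.77, and it was the only one of the 36 genes there.

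The ATPase ring of the regulatory particle had 4 of 6 means lower in MSC and a median difference of -0.0742. Psmc3, the ATPase Rpt5, ran from 9.55 through 9.77 to 9.90 in MSC and from 9.79 through 9.86 to 9.96 in vehicle. Its groups overlapped, but 6 of 7 MSC arrays lay below the vehicle mean, and the means were 9.76 ± 0.112 (SD, n = 7) and 9.88 ± 0.0605 (SD, n = 7). The difference of -0.12 ± 0.0558 (SE), with a 95% interval of -0.236 to 0.001, had the smallest unadjusted p of the 36 genes, 0.0515, and an adjusted p of 0.9999 in limma. Its difference was 1.31 times its pooled SD within groups, and it was the 1 of 36 subunit genes past 1 SD, where 6.24% of genes were. Psmc6, the ATPase Rpt4, ran from 10.88 through 11.11 to 11.35 in MSC and from 11.01 through 11.25 to 11.54 in vehicle. Its difference was -0.0997 ± 0.0865 (SE, limma), again with 6 of 7 MSC arrays lower than the vehicle mean. Psmc3 and Psmc6 were named for the smallest p of their family, so such counts follow in part from the choice. The chaperone Psmd9, with a difference of -0.023, had the same count. Psmc1 (Rpt2) and Psmc5 (Rpt6) differed by -0.0944 and -0.054, and Psmc2 (Rpt1) and Psmc4 (Rpt3) by 0.000414 and 0.0288.

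The lid, which positions and removes the ubiquitin chain, had 5 of 8 means lower in MSC and a median difference of -0.00914. Psmd8, the lid subunit Rpn12, ran from 8.81 through 8.93 to 9.15 in MSC and from 8.86 through 9.07 to 9.30 in vehicle. The difference was -0.12 ± 0.0729 (SE), with 6 of 7 MSC arrays lower than the vehicle mean and an unadjusted p of 0.109 in limma. Psmd12, the lid subunit Rpn5, ran from 11.02 through 11.16 to 11.52 in MSC and from 11.07 through 11.39 to 11.51 in vehicle. Its highest values were alike and its medians were not, and the difference was -0.10 ± 0.0902 (SE, limma). Psmd14, the deubiquitinase Rpn11 that cuts the chain from the substrate, differed by -0.0524, with a 95% interval of -0.225 to 0.12. The other lid subunits lay between -0.015 for Psmd6 and 0.0375 for Psmd3. The scaffold subunits Psmd1 (Rpn2) and Psmd2 (Rpn1) were higher in MSC by 0.0473 and 0.045, and the ubiquitin receptor Psmd4 (Rpn10) differed by -0.0272. Psmd5, Psmd9 and Psmd10, chaperones that help to build the ATPase ring and leave the finished particle, differed by 0.0403, -0.023 and -0.0377, and the second probe set of Psmd10 by -0.0911. Left without these chaperones and the testis and thymus forms, 20 of 31 genes had lower means in MSC and the median difference was -0.0272.

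**Figure D2:**
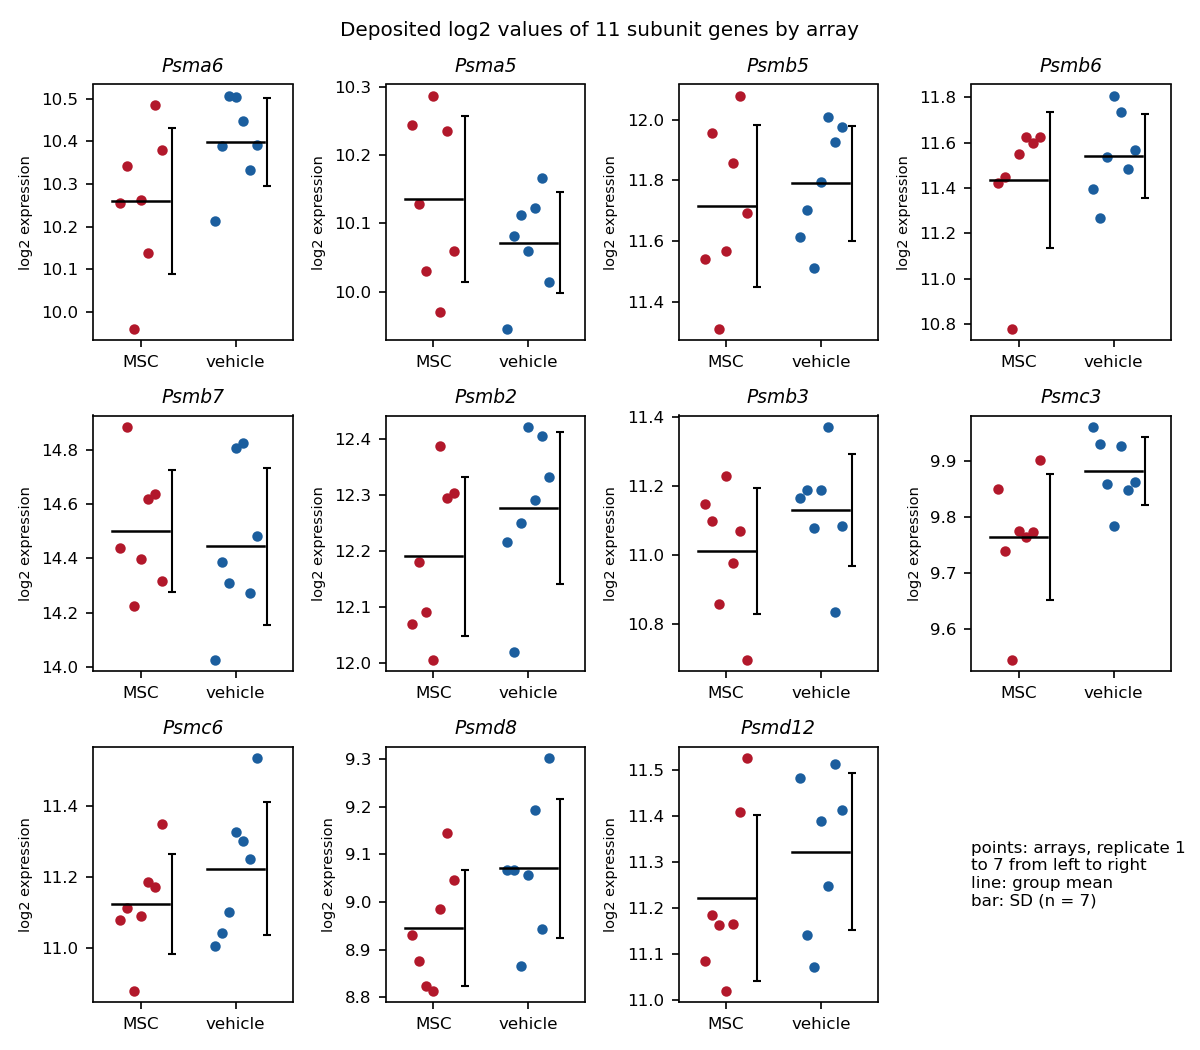
Deposited log2 expression of the 11 subunit genes described by array, with 7 MSC and 7 vehicle arrays as points, the group mean as a line and the SD as a bar. The axes are set separately for each gene and do not start at 0, and the MSC and vehicle points overlap in every panel.

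The core and the regulatory particle were then set side by side. In the core particle 12 of 16 means were lower in MSC, with a median difference of -0.0275, and in the regulatory particle 12 of 20, with a median difference of -0.019. The medians of the 2 particles lay 0.00852 apart on the log2 scale, a gap that was not tested. Splitting further, the median difference was -0.0645 for the 8 Psmb genes and -0.0742 for the 6 Psmc genes, against -0.00765 for the 8 Psma genes and -0.00914 for the 14 Psmd genes. With replicates 1 to 5 alone the median difference was -0.0553 for the core and -0.0399 for the regulatory particle, and with replicates 6 and 7 alone it was 0.0299 and 0.00547. Without vehicle replicate 1 the core median was -0.0358 and the regulatory median 0.00698, and the core median minus the regulatory median went from -0.00852 to -0.0428. That gap was -0.0341 without MSC replicate 2, -0.000737 without MSC replicate 3 and 0.0244 with replicates 6 and 7 alone, so its size depended on single arrays. Without vehicle replicate 4 the medians were -0.0108 for the core and -0.0036 for the regulatory particle.

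Arrays of the same group differed from each other more than the groups did. For each gene the deviation of an array from the gene's median over the 14 arrays was taken, and the median of these deviations over the 36 genes described the array. The array values averaged -0.0152 ± 0.0526 (SD, n = 7) in MSC and 0.00924 ± 0.0574 (SD, n = 7) in vehicle, so that the groups lay closer than the spread within either. In MSC they ran from -0.0886 on replicate 3 to 0.0648 on replicate 6, and in vehicle from -0.068 on replicate 2 to 0.0829 on replicate 5. The same median over all genes with 1 symbol stayed between -0.0106 and 0.0159.

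Individual arrays were low or high for many subunit genes at once, in both groups. MSC replicate 4 had 28 of 36 genes below their own median and MSC replicate 3, vehicle replicate 2 and vehicle replicate 3 had 27 each, while MSC replicate 6 had 7 and vehicle replicates 4 and 7 had 11 each. Among all genes with 1 symbol the share below ranged from 40.9% to 54.8%, and it was lowest on MSC replicate 6. MSC replicate 3 gave the lowest of the MSC values for 12 of the 36 genes and MSC replicate 4 for 10, and vehicle replicates 1 and 2 gave the lowest of the vehicle values for 10 each. Choroid plexus markers were high on MSC replicate 4 and vehicle replicate 2. Their list mean was 5.61 on MSC replicate 3, the lowest array by median deviation, and 6.54 on vehicle replicate 3. Striatal markers were high on MSC replicate 6, whose median deviation was 0.0648. They were at 7.15 and 7.11 on vehicle replicates 5 and 4, with median deviations of 0.0829 and 0.0757. Whether these tissues had a part in the deviations of any array was not tested. Without MSC replicate 4 and vehicle replicate 2 the median difference over the subunit genes was -0.0333, and without MSC replicate 6 as well it was -0.0411, with 0 of 36 genes past the threshold in limma both times.

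The particles did not always move together on an array. On MSC replicate 3 the core deviated by a median of -0.176 and the regulatory particle by -0.0578. On vehicle replicate 1 the core deviated by -0.0787 and the regulatory particle by 0.113, the widest split of the 14 arrays, and on MSC replicate 5 they deviated by -0.0492 and 0.0361. On vehicle replicate 4, the highest array for the core, the values were 0.121 and 0.0433. These splits occurred in both groups.

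**Figure D3:**
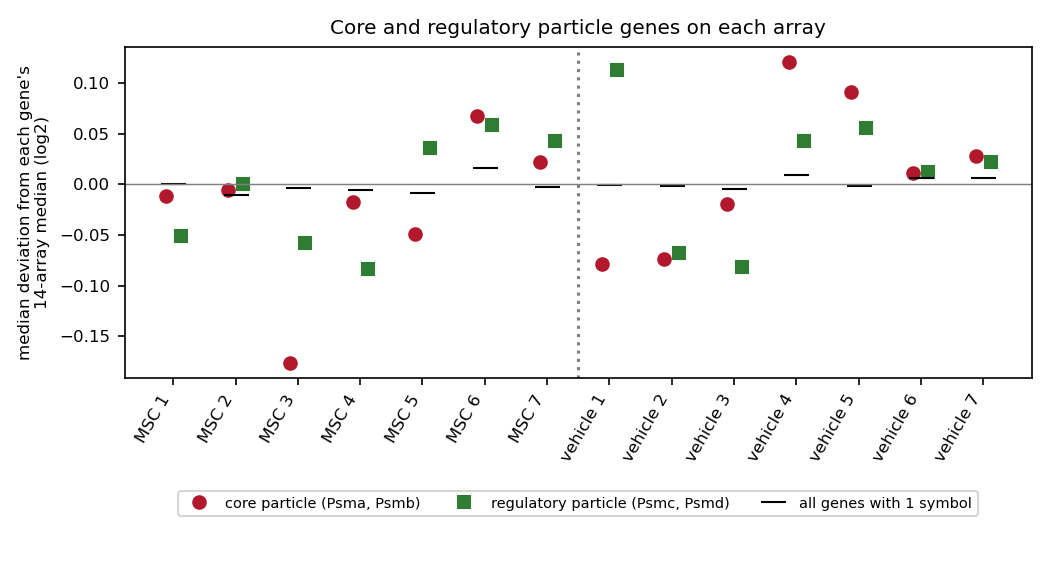
Median deviation of the core particle genes (circles), the regulatory particle genes (squares) and all genes with 1 symbol (dashes) from each gene's median over 14 arrays, on the log2 scale, for each array. The core reaches -0.176 on MSC replicate 3 and 0.121 on vehicle replicate 4, while the dashes stay between -0.0106 and 0.0159.

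**Figure D4:**
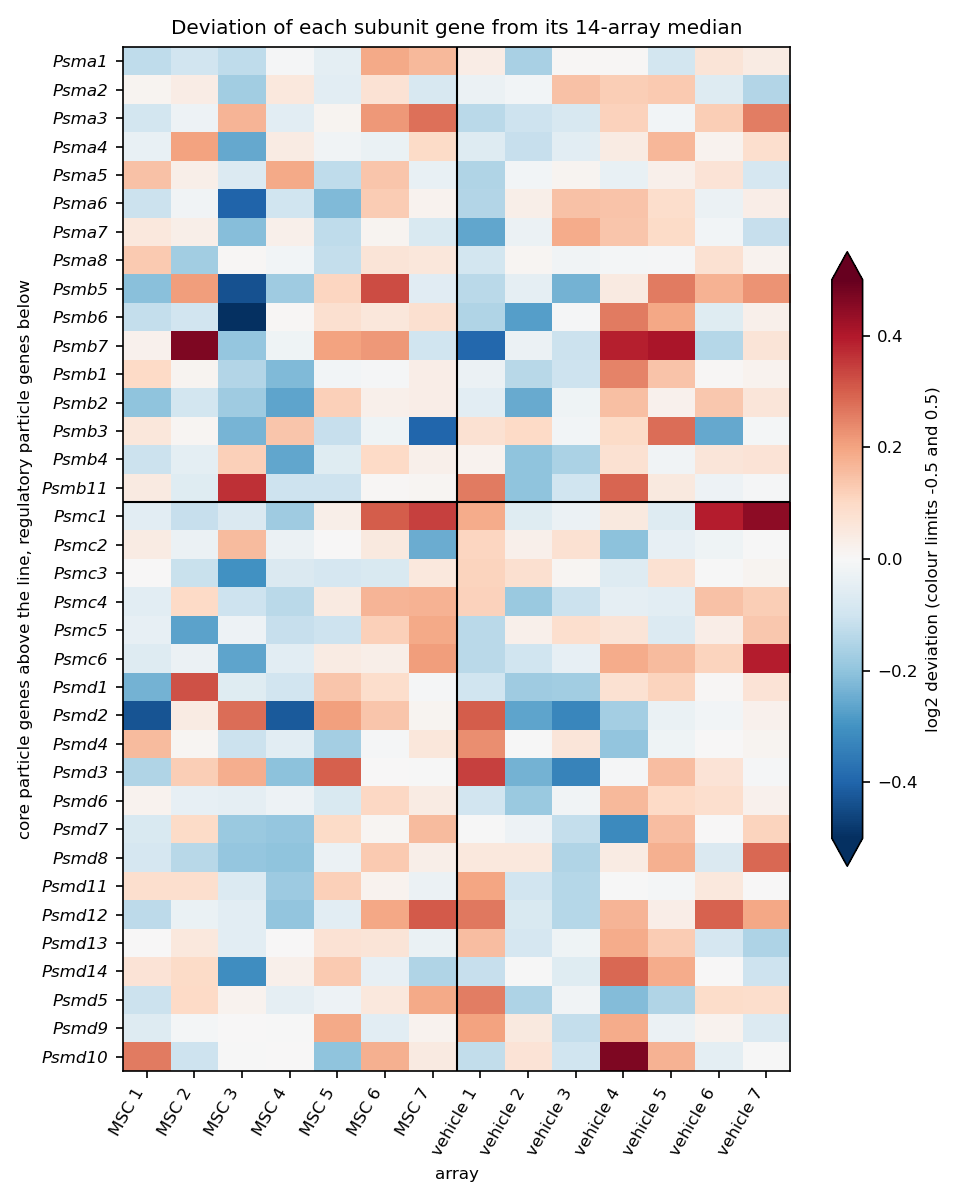
Deviation of each of the 36 subunit genes (rows) from its own median over the 14 arrays (columns), on the log2 scale, with colours ending at 0.5 either way. Blocks of genes share a colour on MSC replicate 3, MSC replicate 4 and vehicle replicate 2, and no block follows the line between the MSC and vehicle columns.

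The genes differed in how widely their values spread within the groups. The pooled SD within groups had a median of 0.137 over the subunit genes, near the 0.132 over all genes. It was largest for Psmb7 at 0.259, the scaffold subunit Psmd2 at 0.252, Psmb6 at 0.25 and Psmb5 at 0.231. The value of Psmb6 rested on 1 array: without MSC replicate 3 its pooled SD was 0.15, that of Psmb5 0.202 and that of Psmb7 0.255, and Psmb7, Psmd2, Psmc1 and Psmd3 were then the most variable. It was smallest for the dim Psma8 at 0.0838 and for Psmc3 at 0.09. Psmc3 and Psmb3 had the same rounded difference of -0.12, with SEs of 0.0558 and 0.0893 and unadjusted p of 0.0515 and 0.203 in limma.

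The promoter elements were counted over the subunit genes whose window was in the RefSeq table, 31 of 36. The response element core TGACNNNGC was found on either strand in 7 of 31 (22.6%), against 12.1% of all 33469 promoters and 13.3% of the 17125 promoters of measured genes. The 9 matches follow, each with 10 bases on either side, read on the strand of the element, which is in capitals.
Psmb5, chr15:32047421-32047449: cgtgaagctgTGACGTCGCggcgttgccc
Psmb6, chr10:55737854-55737882: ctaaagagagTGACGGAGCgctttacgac
Psmb2, chr5:144254980-144255008: cccgcgccaaTGACCGGGCggtcgcatat
Psma3, chr6:95219727-95219755: ctcatggtgcTGACCCGGCaggccacaga
Psmd1, upstream, chr9:94157796-94157824: accagatctaTGACCTCGCgagaattata
Psmd1, downstream, chr9:94157983-94158011: gtgaggggacTGACTGAGCagcgcacccg
Psmd3, chr10:84139941-84139969: ggccgcacgaTGACCGAGCagctgcaaac
Psmd9, distal, chr12:39018370-39018398: ggttttcagaTGACCCGGCagagctaagt
Psmd9, proximal, chr12:39018323-39018351: gagtttccggTGACCTCGCcccacctcca
In Psmb5, Psmb6 and Psmb2 the element lies on the gene's strand and starts at -60, -24 and -68 relative to the gene start, while in Psma3, Psmd3 and the distal match of Psmd9 it lies on the opposite strand. The downstream match of Psmd1 and the match of Psmd3 lie after the gene start. A match describes letters only and is no evidence of binding.

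The genes with and without the element were set beside their differences. The 7 genes with TGACNNNGC had a median difference of -0.023, with 4 lower in MSC, and the 24 without it -0.011, with 15 lower. CCAAT occurred in 16 of 31 windows (51.6%), against 37.8% of measured genes, and the median difference was -0.0251 with the box and -0.00428 without it. GGGCGG occurred in 22 of 31 windows (71.0%), against 45.9% of measured genes, and the median difference was -0.0325 with it and -0.0033 without it. The windows had a median GC content of 56.0%, and those of measured genes 56.7%. None of these differences between medians was tested.

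Copies of several subunit genes, named as pseudogenes or as like genes by their symbols, had 11 probe sets of their own outside the rule. They were looked at after the values had been seen. All 11 had lower means in MSC, and 6 of the 11 were below the lowest array median. Lower means in MSC were also the more frequent among dim genes at large, at 60.1% of the 7880 genes below that median, and among all probe sets, at 58.0%. The probe set of Psmb3l1, named as like Psmb3, had a mean of 4.46 ± 0.124 (SD, n = 7) in MSC and 4.71 ± 0.236 (SD, n = 7) in vehicle, a difference of -0.25 ± 0.0961 (SE) with an unadjusted p of 0.0197 and an adjusted p of 0.9999 in limma. That of Psma6-ps1 differed by -0.24 ± 0.0969 (SE), with an unadjusted p of 0.0252 in limma. Both are dim. Copies share sequence with their parent genes, so the signal of a parent and that of a copy may not be fully told apart on these arrays. How far they mix was not tested. The parents Psmb3 and Psma6 were far brighter, with means of 11.01 and 10.26 in MSC. The values of the copies, and possibly those of the parents, are less certain for this.

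The genes that build, feed and regulate the proteasome were taken as 6 lists, of which 51 of 56 genes were measured. None of the 51 genes passed the adjusted threshold in limma, and 0 of 51 had an unadjusted p below 0.05, against 0.0% and 3.41% of all probe sets. The means of 34 were lower in MSC and those of 17 higher, with a median difference of -0.0127. Lower means were found for 52.4% of genes, at 1 row each, and for 6831 of the 14213 genes at or above the lowest array median. All 51 intervals lay within 1.5-fold, as for 97.7% of genes.

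The inducible subunits replace the catalytic ones under interferon. Psmb8, the inducible form of the chymotrypsin-like subunit, had means of 6.09 in MSC and 6.10 in vehicle, Psmb9 5.73 and 5.76, and Psmb10 6.85 and 6.87. Psmb9 lay below the lowest array median, so a difference in it could go unseen. With the activators that dock on the core, 4 of 8 genes of this list were lower in MSC, and Psme3, a nuclear activator, had the largest difference of the list at 0.0721. Of 7 assembly factors 5 were lower in MSC. Pomp, the chaperone that matures the beta ring, had means of 11.41 and 11.55 and a difference of -0.13 with an unadjusted p of 0.109 in limma, and Psmg1, an alpha ring chaperone, differed by -0.0889.

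Of the receptors, deubiquitinases and ligases that sit on the particle, 7 of 9 were lower in MSC, with a median difference of -0.0194. Ube3c, a ubiquitin ligase bound to the proteasome, differed by -0.10 and Sem1, a small lid subunit, by -0.13, with unadjusted p of 0.0734 and 0.103 in limma. Shuttles and the segregase that deliver substrates were divided, 5 of 11 lower, with Vcp, the segregase ATPase, at 0.0661 and the shuttle Ubqln2 at -0.0547. Uba1, the main ubiquitin-activating enzyme, differed by 0.12 and Uba6 by -0.0596, and 3 of the 5 genes of their list were lower.

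Genes that control transcription of the subunits formed the most one-sided of the 6 lists, 10 of 11 lower in MSC with a median difference of -0.0493, and 0 of 11 passed either threshold in limma. Lower means were found for 52.4% of all genes and for 6831 of the 14213 genes at or above the lowest array median. Nfe2l1, the activator that raises the subunit genes when the proteasome falls short, had a mean of 9.14 in both groups and a difference of 0.00308, with a 95% interval of -0.116 to 0.122. It was the 1 gene of the list that was not lower. Nfe2l2, the oxidative stress activator, had means of 7.47 and 7.50 and a difference of -0.0328, and its repressor Keap1 differed by -0.0848. Foxo3, a transcription factor known for raising proteasome and autophagy genes in wasting muscle, differed by -0.13 with an unadjusted p of 0.0865 in limma.

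**Figure D5:**
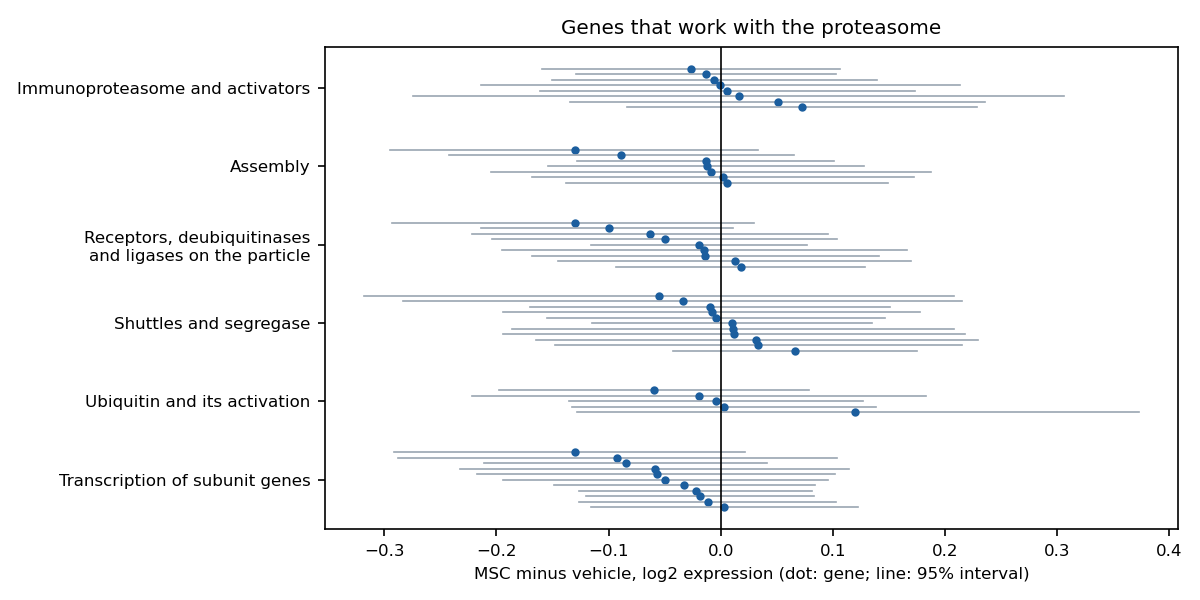
Difference between MSC and vehicle in mean log2 expression (dot, n = 7 arrays per group) with its 95% interval from limma (line) for each of the 51 measured genes of the 6 lists around the proteasome. The dots lie between -0.13 and 0.12, every interval includes 0, and the dots of every list fall on both sides of 0.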

How the data were processed

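RNA of motor cortex was measured on 14 Affymetrix whole-transcript arrays, 7 per group, from 100 ng of total RNA each, per the labels' protocols. The values the authors deposited are on a log2 scale. The submitters' processing notes name RMA and Affymetrix Expression Console. No source used here gives their versions or settings, or the build behind the annotation. The values ran from 2.74 to 19.9, and array medians from 5.77 to 5.90. Any 2 arrays correlated at 0.990 to 0.997 over probe sets, and 0 pairs held identical values. The number of arrays limits the precision.

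Of 70580 probe sets, 1738 controls were left out and 68842 tested. Of these, 23446 had 1 gene symbol, 505 had several symbols, which left them without a name, and 44891 stay unnamed. Symbols were updated through the RefSeq gene table of GRCr8, which changed 1. The comparison used lmFit and eBayes of limma 3.58.1 (R 4.3.3) without covariates. P-values were adjusted over the 68842 probe sets by the Benjamini-Hochberg method, and an adjusted p below 0.05 counted as passing. The fit was tested on simulated data. Motifs were searched on both strands of RefSeq promoter windows of 300 bases, and letters of 1 motif may overlap those of another.

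The members, the pathway and marker lists and the tests were chosen with earlier results of these data known. Values by array are given for the 3 catalytic subunits and for the 2 genes with the smallest unadjusted p in each of the families Psma, Psmb, Psmc and Psmd. Of the pathway lists, Psmb8, Psmb9, Psmb10, Pomp, Nfe2l1, Nfe2l2 and the 2 genes of smallest p per list are named. Alternatives changed the scaling, the filters, the moderation, the replicate block, the spike-in split and the arrays included.

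As a check of tissue, the mean log2 value of each marker list ran as follows over the MSC and then the vehicle arrays. Interneurons ran from 11.50 to 12.20 and from 11.67 to 12.12. Astrocytes ran from 9.96 to 10.61 and from 9.53 to 10.63, and oligodendrocytes from 11.50 to 12.42 and from 11.56 to 12.49. Microglia ran from 8.11 to 8.50 and from 8.22 to 8.45, and endothelium from 8.38 to 8.82 and from 8.66 to 9.22. Meningeal fibroblasts ran from 6.87 to 7.98 and from 6.74 to 7.78, and erythroid cells from 6.38 to 6.88 and from 6.02 to 6.93.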

Additional observations from a re-analysis of the deposited data

Results flagged for a closer look

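Each group of 7 arrays was searched for a highest or lowest value whose gap to its neighbour was large against the group's range (Dixon's ratio above 0.568). Of 112 groups looked at, 3 held such a value, and chance alone flags about 1 in 20 groups. Psmb6, the caspase-like catalytic subunit, was 10.78 on MSC replicate 3, far below the next MSC value of 11.42. Psmb11, the thymus form of the chymotrypsin-like subunit, was 7.90 on MSC replicate 3, above the next value of 7.59. Psmd9, a chaperone of the ATPase ring, was 8.02 on MSC replicate 5, above the next value of 7.85.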

How the results depend on the processing

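Under 27 alternatives, 0 of the 36 subunit genes and 0 of the 51 pathway genes passed the adjusted threshold in limma, and 0 to 3 subunit genes had an unadjusted p below 0.05. In the alternatives that tested 68842 probe sets, 1929 to 3417 of these had an unadjusted p below 0.05 in limma. Over all probe sets, 0 passed the adjusted threshold, except 1 with replicates 6 and 7 alone. The alternative without dim probe sets tested 35 of the 36 and 50 of the 51. Of the alternatives, 14 left out 1 array each, and 2 were added after the marker levels were seen. The median difference of all subunit genes was -0.00965 after repeated quantile normalization, with 19 genes lower in MSC, and -0.00315 with arrays centred on their medians, with 18 lower. The median over all probe sets then moved from -0.0149 to 0.00275 and 0.00105. With replicates 6 and 7 alone, a split seen in the spike-ins, the medians were 0.015 for all subunit genes, 0.0299 for the core and 0.00547 for the regulatory particle, and 13 genes were lower. With replicates 1 to 5 alone the median was -0.0416, and Psmd8, Psmc3 and Psma6 had an unadjusted p below 0.05 in limma. In that setting 2550 of 68842 probe sets did. With 1 array left out, the median ran from -0.0389 to -0.00778 over all subunit genes, from -0.0466 to -0.0106 over the core and from -0.0292 to 0.00698 over the regulatory particle. With MSC replicate 7 counted as vehicle the median was -0.0264 and 28 genes were lower. A total of 9 genes kept the sign of their difference under every alternative (Psma5 higher in MSC, and Psmb2, Psmb3, Psmb5, Psmc1, Psmc3, Psmc6, Psmd8 and Psmd14 lower), and 27 turned it under at least 1. Some alternatives could not turn a sign, because they leave each gene's difference as it was. These kept the controls, dropped dim probe sets, changed the moderation, or added the replicate block or the spike-in split. Taking the mean of all probe sets of a gene could move only Psmd10. A kept sign is no measure of size: without MSC replicate 3 the differences of Psmb5 and Psmd14 were -0.00837 and -0.00512.

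With the replicate block 0 genes passed. Each number holds 1 array per group, so the block cannot move a difference, and the medians of -0.0191, -0.0275 and -0.019 are the same by construction. Same-numbered arrays of the groups deviated together with correlations of -0.312 to 0.274, so the numbers are not taken to pair them.

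The intervals limit what 7 arrays per group can show: the median half-width for a subunit gene was 0.157 on the log2 scale. Protein, assembly and activity of the proteasome were not measured.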
